A study of Homo sapiens with 10 samples.

Results

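The genes of the actin cytoskeleton and its contractile machinery were followed in MCF10A cells, a non-tumorigenic human mammary epithelial line, during treatment with TGFβ1, the growth factor used here to induce epithelial to mesenchymal transition. The set holds 39 genes, chosen as the rows of the deposited expression table whose Entrez ID belongs to one of 39 listed symbols, out of 23786 genes in all, and every one was found. One group was untreated (1 array), and the 9 other arrays came from the same line treated with 10 ng/mL TGFβ1 for 4 h and for 1, 2, 3, 4, 5, 6, 8 and 12 days, 1 array at each time. The treatments were started at different times so that all plates could be harvested together, and cells were kept without serum before harvest. No array has a replicate, MCF10A is a single line, and the sources used here do not say whether an array is 1 culture or a pool, so errors come from treating neighbouring times as replicates of a window and cover both the drift within a window and the spread between arrays.

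Actin filaments become contractile stress fibres when myosin II slides along filaments that tropomyosins and calponins coat and α-actinins bundle, and focal adhesions tie the fibre ends to integrins. The small GTPase RhoA and its kinases ROCK1 and ROCK2 raise myosin light chain phosphorylation and slow filament turnover. As monomeric actin is used up, the MRTF coactivators enter the nucleus and act with serum response factor (SRF) on CArG boxes, which are found upstream of many smooth muscle and cytoskeletal genes. TGFβ is widely known to induce stress fibres in epithelial cells. The 39 genes were sorted by role into 10 smooth muscle type genes, 10 focal adhesion genes, 6 LIM and stress fibre scaffolds, 6 non-muscle myosin, tropomyosin and calponin genes, 5 genes for small GTPases, their ROCK kinases and SRF, and 2 genes of actin monomer turnover.

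Upstream sequence is shown because some members have a match to the CArG box close to their start and others have none. Windows of 250 bases before each annotated start were searched on both strands (RefSeq, GRCh38.p14), and 37 of the 39 genes had an entry. Only exact matches to CCWWWWWWGG, with W for A or T, were counted as a CArG box. Boxes with another base or outside these windows were not looked for, so a gene without a match is not shown to lack one. A CArG box was present in 10 of the 37 genes (27%), against 1.44% of 27305 genes with such windows. Counted by window, since a gene can have several starts, it was 12 of 64 windows (18.8%) against 1.16% of 35116. The 10 genes were ACTG2, MYLK, ACTN1, FLNA, TES, FHL2, CNN2, TPM4, ROCK2 and SRF itself. Printed below are 200 bases before the start for the 2 smooth muscle type genes that hold a box, and for the 3 genes with a box that were called higher late in treatment, the latter chosen after their values were seen. Capitals mark the CArG boxes, and each line runs 5′ to 3′ along the gene's own strand, ending at the last base before the start.
ACTG2, chr2:73892808-73893007, plus strand: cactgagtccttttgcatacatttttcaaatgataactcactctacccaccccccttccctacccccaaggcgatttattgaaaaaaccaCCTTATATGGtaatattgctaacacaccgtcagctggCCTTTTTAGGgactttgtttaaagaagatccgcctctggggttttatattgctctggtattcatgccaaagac
MYLK, chr3:123620549-123620748, minus strand: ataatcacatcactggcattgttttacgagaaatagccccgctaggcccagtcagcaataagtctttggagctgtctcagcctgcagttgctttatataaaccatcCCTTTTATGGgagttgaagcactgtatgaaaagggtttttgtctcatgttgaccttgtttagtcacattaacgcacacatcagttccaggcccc
ACTN1, chr14:68977567-68977766, minus strand: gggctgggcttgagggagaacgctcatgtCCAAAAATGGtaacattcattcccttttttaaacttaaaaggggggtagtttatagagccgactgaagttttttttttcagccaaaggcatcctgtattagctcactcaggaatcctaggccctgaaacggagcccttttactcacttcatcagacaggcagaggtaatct
TPM4, chr19:16067338-16067537, plus strand: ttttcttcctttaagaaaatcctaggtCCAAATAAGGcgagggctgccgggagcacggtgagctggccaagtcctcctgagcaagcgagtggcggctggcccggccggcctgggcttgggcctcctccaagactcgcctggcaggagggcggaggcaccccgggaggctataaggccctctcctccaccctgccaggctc
FLNA, chrX:154374635-154374834, minus strand: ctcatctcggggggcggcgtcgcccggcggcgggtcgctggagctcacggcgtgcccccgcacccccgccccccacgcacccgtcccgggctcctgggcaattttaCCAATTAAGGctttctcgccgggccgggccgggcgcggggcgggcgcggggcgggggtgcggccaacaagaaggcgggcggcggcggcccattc
ACTG2 holds 2 boxes, which begin 110 and 73 bases before the start, and the other 4 genes hold 1 each. A match is a description of letters and was not tested as a binding site. The short motif CAGAC or its complement GTCTG, the core of SMAD binding elements, occurred in 16 of the 37 genes (43.2%) and in 42.8% of all genes.

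Values are log2 RMA values per gene, in which a difference of 1 is a 2-fold change. They are compared within a gene only, since probes of different genes differ in brightness. For testing, the arrays were put into 3 windows that follow the stages of transition the study drew from several molecular layers together. The study left mRNA out of its clustering tree of time points. Whether mRNA entered its other joint analysis is not clear from the sources used here, so the windows may not be independent of these arrays. Untreated cells, 4 h and day 1 made up the early window (n = 3). Days 2, 3 and 4 formed the middle one (n = 3), and the 4 arrays from day 5 to day 12 the late one (n = 4). A gene was called when limma's Benjamini-Hochberg adjusted p over all 23786 genes was at most 0.05 and the difference between windows was at least 1 log2.

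Late against early, 11 of the 39 genes (28.2%) were called higher, where 2.92% of all genes were called higher and 5.44% of the genes above the median gene. None of the 39 was called lower (1.64% of all genes were). In limma 3 (7.69%) had an unadjusted p of at most 0.05 with a lower late mean, namely RHOA, RHOB and PFN1, against 15.2% of all genes. Limma with a trended, robust prior also called 0 lower. The 11 were the smooth muscle type genes MYL9, TAGLN, TPM2, CALD1 and TPM1, the focal adhesion genes FLNA and ACTN1, the scaffolds PDLIM7 and PALLD, and the non-muscle genes TPM4 and MYH10. On adjusted p alone 19 were higher, against 8% of all genes, and 18 of these differed by at least 0.5 log2, against 7.14%. The median late minus early difference over the 39 genes was 0.51, beside -0.06 over all genes. In bulk RNA, a change in the number of cells that express a gene and a change in RNA per cell cannot be told apart.

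**Figure D1:**
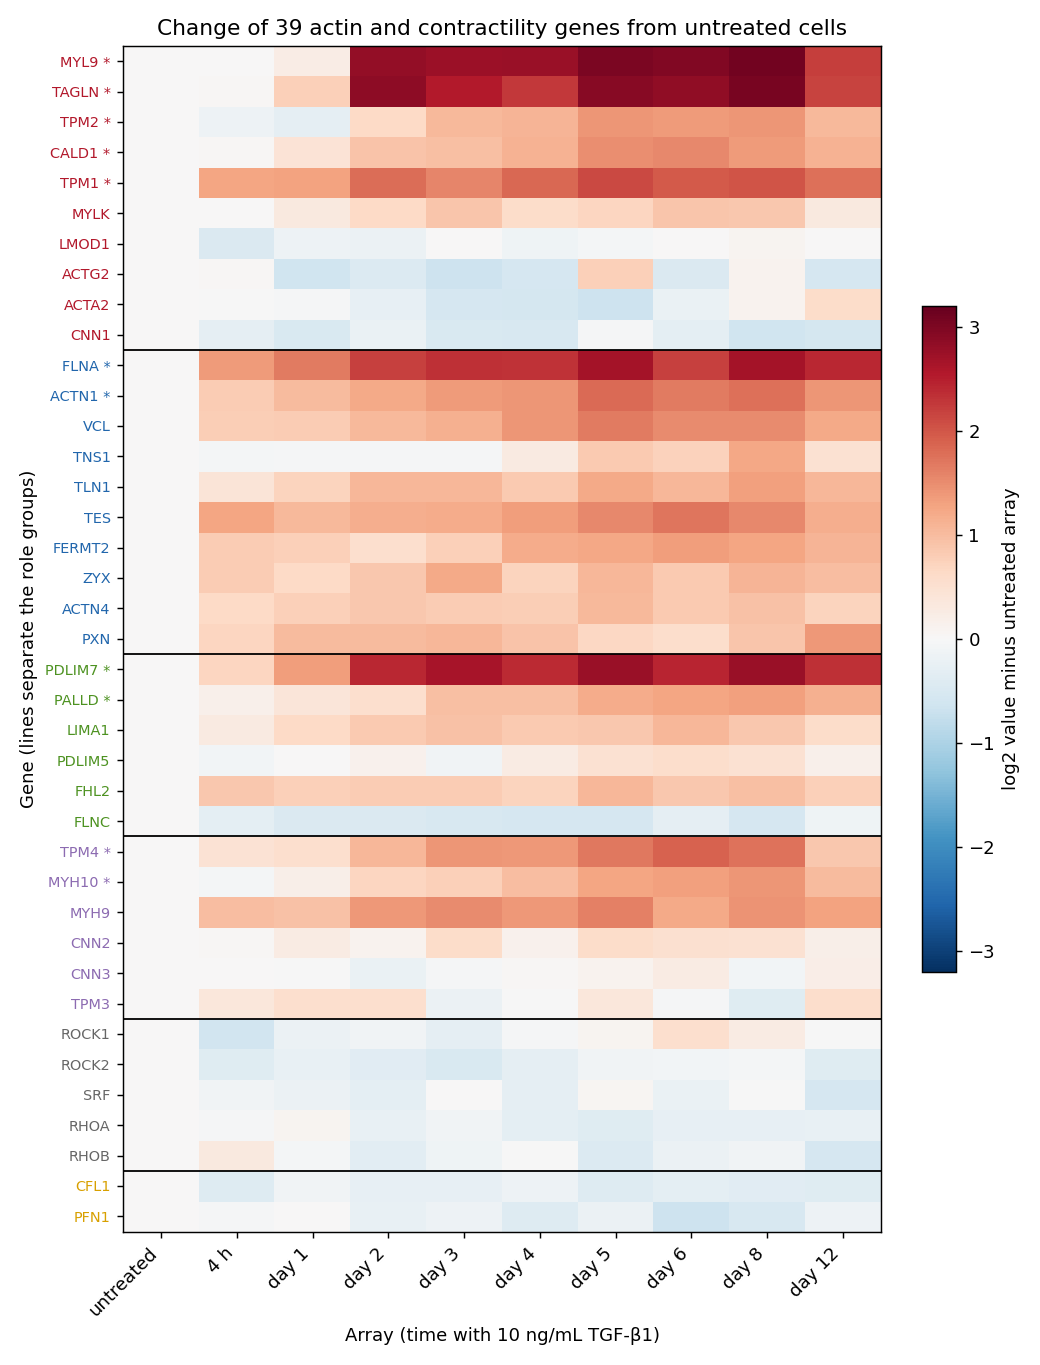
The colour of each cell is the log2 value of a gene on 1 array minus its value on the untreated array, with genes in rows, arrays in columns in order of time, and an asterisk on the 11 genes called higher late against early. MYL9 and TAGLN stay near 0 at 4 h and turn deep red from day 2, while most focal adhesion genes are already red at 4 h.

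The array of untreated cells stood apart from the rest. Its values lay a median 0.238 log2 from each gene's median, where the other 9 arrays lay 0.0994 to 0.162 away, and its mean correlation with the other arrays was 0.96 against 0.973 to 0.983. Only 1 array is untreated, so a culture or array effect and the effect of treatment cannot be told apart there. Without it 7 of the 39 genes (17.9%) were called higher late against early, where 2.33% of all genes were. They were MYL9, TAGLN, TPM2, CALD1, PDLIM7, MYH10 and TPM4. The 4 others kept an adjusted p of at most 0.05 and had differences under 1 log2, which were 0.70 for TPM1, 0.75 for ACTN1, 0.97 for FLNA and 0.94 for PALLD. On adjusted p alone 15 of 39 were higher without it (6.18% of all genes), in place of 19. FERMT2, MYH9, MYLK, LIMA1 and PDLIM5 no longer passed and ROCK1 did. The epithelial label was checked against 10 markers of basal mammary epithelium, and 9 of these lay above the median gene on every array, KRT17 being the exception. KRT14 was the 1 marker of the 10 called higher late against early, by 2.18 (SE 0.52, limma adjusted p = 0.0156). On adjusted p alone CDH1 (0.65), CDH3 (0.94) and KRT6A (0.74) were also higher and EGFR (-0.52) was lower. KRT17 (-0.78), TP63 (-0.55) and ITGA6 (-0.34) had lower late means and did not pass. LAMB3 (1.29) and KRT5 (0.26) had higher late means and did not pass on p either. The part of these marker shifts in the results below was not tested. Of 3 blood cell genes PTPRC and CD3E lay below the lower quartile on all 10 arrays, and CD68 lay above the median gene. The smooth muscle defining genes MYH11, DES and MYOCD lay below the median gene on all 10 arrays, as did the endothelial genes CDH5, PECAM1 and VWF, and their late minus early differences lay between -0.13 and 0.07.

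Among smooth muscle type genes the largest rise belonged to MYL9, which encodes the regulatory light chain of smooth muscle myosin II. It stood at 4.89, 4.89 and 5.13 on the early arrays (untreated, 4 h and day 1), at 7.71, 7.62 and 7.64 on days 2, 3 and 4, and at 7.91, 7.86, 7.98 and 7.09 on days 5, 6, 8 and 12. The gene was flat until day 1, all 7 later arrays lay more than 1 log2 above all 3 early ones, and day 12 was the lowest of them. The late minus early difference was 2.74 (SE 0.19), a 6.67-fold rise (limma adjusted p = 1.62e-05), and middle minus early was 2.68 (SE 0.20), adjusted p = 0.000179. Its close relatives MYL12A and MYL12B, the non-muscle light chains, were not called (differences -0.29 and -0.20, adjusted p = 0.104 and 0.42).

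TAGLN encodes transgelin, an actin cross-linking protein of the calponin family that is abundant in smooth muscle. Its values were 4.38, 4.42 and 5.15 early, 7.23, 6.91 and 6.64 in the middle window and 7.28, 7.22, 7.42 and 6.53 late, in the same order of times. It had moved on day 1 already, and no middle or late array reached down to the early ones. The rise was 2.46 (SE 0.24) late against early, or 5.52-fold (adjusted p = 0.000101), and 2.28 (SE 0.26) middle against early (adjusted p = 0.00112). From day 1 to day 2 alone MYL9 went up by 2.58 and TAGLN by 2.09, differences between single arrays with no test. Only 20 genes of the table (0.0841%) went up by at least 2 log2 over that day.

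TPM2 and TPM1, 2 tropomyosins whose muscle isoforms coat contractile filaments, followed different courses. TPM2 read 5.82, 5.66 and 5.53 early, 6.45, 6.86 and 6.92 in the middle and 7.23, 7.18, 7.24 and 6.86 late. It was slightly below the untreated value at 4 h and on day 1 and above it from day 2, with no overlap between early and later arrays. It rose by 1.46 (SE 0.15, adjusted p = 0.000112), and by 1.08 (SE 0.16) middle against early (adjusted p = 0.00329). TPM1 read 4.74, 5.99 and 6.02 early, 6.53, 6.29 and 6.57 in the middle and 6.86, 6.70, 6.76 and 6.50 late. Here the 4 h array was already high, so that only the untreated value stood far below the rest. Its late minus early difference of 1.12 (SE 0.26, adjusted p = 0.0133) was 0.70 without that array.

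CALD1, or caldesmon, which binds actin, tropomyosin and calmodulin and restrains actomyosin, rose in smaller steps. Its values were 7.80, 7.83 and 8.24, then 8.71, 8.75 and 8.92, then 9.29, 9.33, 9.15 and 8.91. Each window lay above the early one without overlap, and the rise was 1.21 (SE 0.15) late (adjusted p = 0.00031). In the middle window it was 0.83 (SE 0.16), past the limit on p (adjusted p = 0.00893) and under that on size. MYLK, the kinase that phosphorylates myosin light chains, showed 1.88, 1.89 and 2.20 early, 2.51, 2.78 and 2.47 in the middle and 2.57, 2.78, 2.74 and 2.20 late. Its day 12 value was level with day 1, and the late difference of 0.58 (SE 0.16, adjusted p = 0.0285) was under 1 log2 and so not called. MYLK lay below the median gene on all 10 arrays, and without the untreated array its difference was 0.53 (adjusted p = 0.086).

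The other 4 smooth muscle type genes, which include the classical markers of the lineage, were not called. ACTA2, smooth muscle α-actin, read 3.63, 3.61 and 3.60 early, 3.36, 3.08 and 3.07 in the middle and 2.97, 3.42, 3.73 and 4.22 late. All 3 middle arrays lay below the early ones. It went down to a low on day 5 and then up to its highest value on day 12, the only late array above all early ones other than day 8. The windows averaged out to a difference of -0.03 (95% interval -0.53 to 0.48, adjusted p = 0.955). In the fit of a quadratic in time its F test gave an adjusted p of 0.0122, and its largest change from untreated, -0.67 on day 5, was under the size limit. ACTA2 was above the median gene on every array, and the day 12 rise rests on 1 array.

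ACTG2, smooth muscle γ-actin, read 1.30, 1.33 and 0.67 early, 0.87, 0.63 and 0.75 in the middle and 2.05, 0.83, 1.42 and 0.75 late. It lay below the lower quartile of all genes on every array other than day 5, the windows overlapped, and the late minus early difference was 0.16 (95% interval -0.46 to 0.77, adjusted p = 0.771). CNN1, calponin 1, which binds actin and tropomyosin in smooth muscle, lay below the median gene on all 10 arrays, between 2.24 and 2.88. Its values were 2.88, 2.58 and 2.38 early, 2.66, 2.38 and 2.37 in the middle and 2.84, 2.56, 2.24 and 2.32 late, with all windows overlapping. The difference was -0.12 (95% interval -0.49 to 0.25, adjusted p = 0.693). LMOD1, leiomodin 1, a filament nucleator of smooth muscle, was also dim, at 2.03, 1.57 and 1.86 early, then 1.84, 2.03 and 1.88, then 1.96, 2.03, 2.11 and 2.03, with overlapping windows and a difference of 0.21 (95% interval -0.06 to 0.48, adjusted p = 0.303). For CNN1 and LMOD1 these intervals do not reach 1 log2 in either direction, although a probe near background can understate change.

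**Figure D2:**
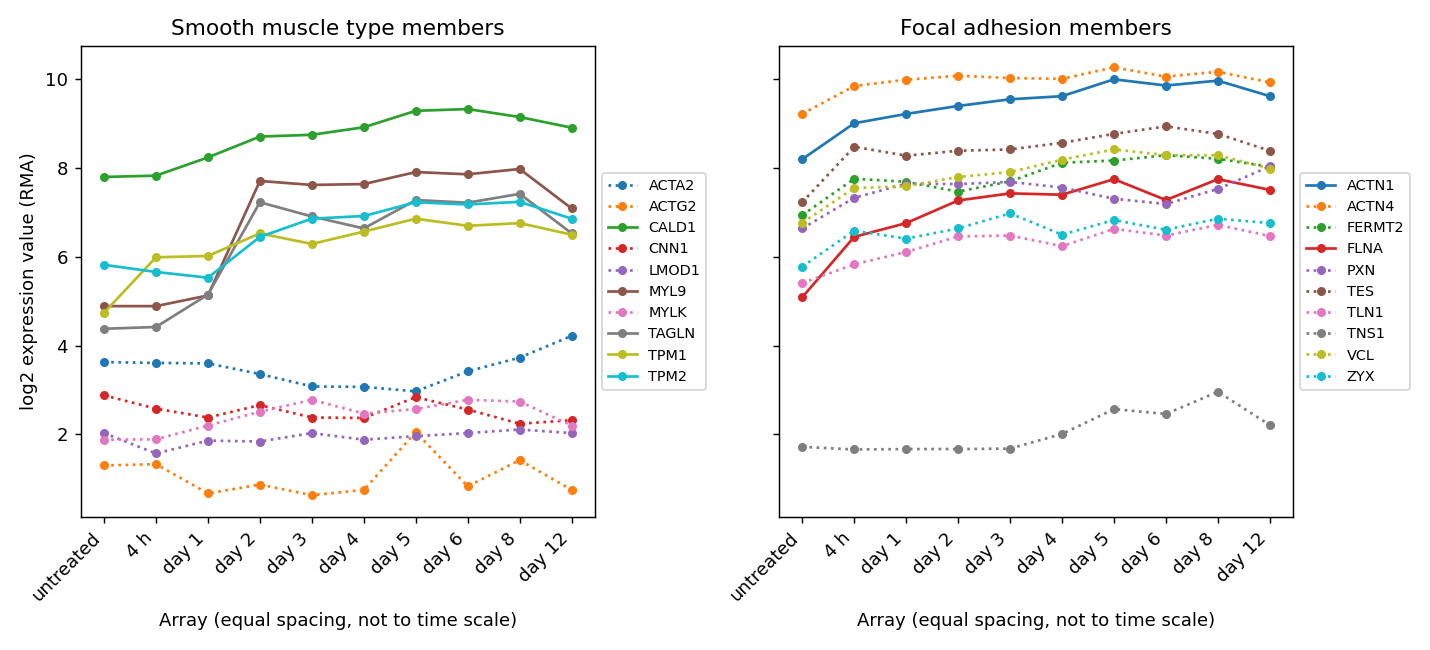
The log2 RMA value of each smooth muscle type gene (left) and focal adhesion gene (right) is plotted on the 10 arrays in order of time, with solid lines for genes called late against early and dotted lines for the rest, and heights are not comparable between genes. MYL9 and TAGLN climb between day 1 and day 2, whereas FLNA climbs between the untreated and the 4 h array.

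Of the focal adhesion genes FLNA and ACTN1 were called, and 8 of the 10 already lay at least 0.5 log2 above untreated at 4 h. So did 11.4% of all genes and 18.9% of those above the median gene. This difference is between single arrays, the untreated one being the array that stood apart. FLNA, filamin A, which cross-links actin filaments and links them to integrins, read 5.09, 6.45 and 6.76 early, 7.27, 7.43 and 7.40 in the middle and 7.75, 7.28, 7.75 and 7.51 late. The step from untreated to 4 h, 1.36, was its largest between neighbouring times, and early and later arrays did not overlap. It rose by 1.47 (SE 0.31) late against early (adjusted p = 0.00781) and by 1.27 (SE 0.33) in the middle window (adjusted p = 0.0391). The middle call was lost in 8 of 10 fits that each left out 1 array, those without day 1 and without day 12 being the exceptions. ACTN1, α-actinin 1, the bundling protein of stress fibres and adhesions, read 8.20, 9.01 and 9.22, then 9.40, 9.55 and 9.62, then 10.00, 9.86, 9.97 and 9.62. It too stepped up at 4 h and climbed slowly to day 5, for a late difference of 1.06 (SE 0.21, adjusted p = 0.00557).

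VCL, vinculin, which reinforces the bond between talin and actin under load, read 6.77, 7.55 and 7.59 early, 7.80, 7.91 and 8.19 in the middle and 8.42, 8.29, 8.29 and 7.99 late. All later arrays exceeded the early ones, and the difference of 0.94 (SE 0.20, adjusted p = 0.00771) lay just under the size limit. TES, testin, a LIM protein of adhesions and stress fibres, read 7.23, 8.48 and 8.28 early, then 8.39, 8.42 and 8.57, then 8.77, 8.94, 8.77 and 8.39. It was high from 4 h on, with overlapping windows and a late difference of 0.72 that missed the threshold (adjusted p = 0.0766). Of the remaining 6, TNS1 (tensin 1, an adaptor of fibrillar adhesions), TLN1 (talin 1, the integrin activator) and FERMT2 (kindlin 2, its partner) had adjusted p values of 0.0045, 0.00581 and 0.0369 with differences of 0.87, 0.79 and 0.71. Without the untreated array FERMT2 gave 0.45 (adjusted p = 0.118) and TES 0.34 (adjusted p = 0.208). TNS1 was dim, below the median gene on 9 arrays and below the lower quartile on 5. It read 1.66 to 1.72 through day 3 and 2.21 to 2.96 on days 5 to 12. ZYX (zyxin), ACTN4 (α-actinin 4) and PXN (paxillin) did not pass on p, with differences of 0.31 to 0.51.

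Set side by side, 5 of 10 smooth muscle type genes and 2 of 10 focal adhesion genes were called higher late against early, with 2.92% of all genes. Values are per gene, so the isoforms of a gene were not told apart. On adjusted p alone both groups had 6 of 10, with 8% of all genes. The medians of their late minus early differences were 0.85 and 0.76, beside -0.06 for all genes, and so lay 0.10 apart. The spread was wider among smooth muscle type genes, from -0.12 to 2.74, than among focal adhesion genes, from 0.31 to 1.47. Over the 6 smooth muscle type genes whose mean was above the median gene, the median was 1.34. The focal adhesion genes were not filtered in this way, so 1.34 is not a match for their median of 0.76. Without the untreated array 4 of 10 smooth muscle type genes and 0 of 10 focal adhesion genes were called by limma, with 2.33% of all genes and with medians of 0.61 and 0.53. In that fit 5 of 10 genes of either group had an adjusted p of at most 0.05 and a higher late mean (6.18% of all genes). Unadjusted, it was 7 smooth muscle type and 6 focal adhesion genes (11.5% of all genes), and the focal adhesion differences were all under 1 log2.

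**Figure D3:**
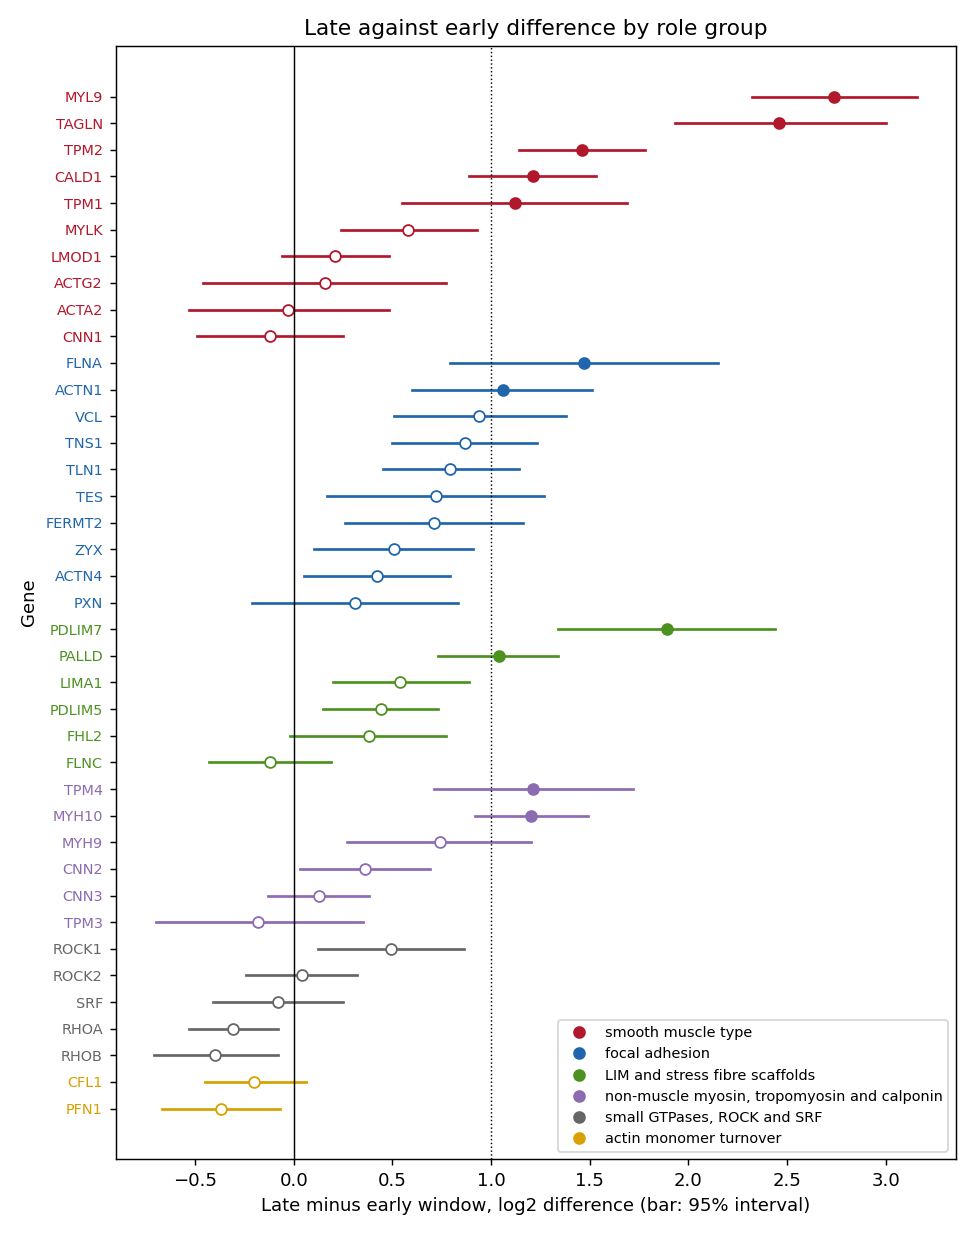
Points give the late minus early log2 difference of each of the 39 genes and bars its 95% interval from limma, coloured by role, with filled points for the 11 genes called and a dotted line at the limit of 1 log2. The smooth muscle type genes run from -0.12 to 2.74, the focal adhesion genes all lie between 0.31 and 1.47, and the GTPase, ROCK, SRF and turnover genes lie between -0.40 and 0.49.

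The timing of the change was described next, for single arrays. At 4 h, 3 of the 39 genes were at least 1 log2 above untreated, TPM1 (1.26), FLNA (1.36) and TES (1.24), where 2.21% of all genes and 3.93% of those above the median gene were. None of the 39 was 1 log2 or more below untreated (1.39% of all genes). At least 0.5 log2 was reached by 12 of 39 genes, against 11.4% of all genes and 18.9% of those above the median gene. Of these 12, 8 were focal adhesion genes and 1 was a smooth muscle type gene, TPM1. The median 4 h change was 0.79 over the focal adhesion genes and 0.00 over the smooth muscle type genes, with -0.03 for all genes. These are differences between 2 single arrays, 1 of them the untreated array that stood apart, and they have no test.

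From day 1 to day 2 the order turned round. The median change over that day was 0.39 for smooth muscle type genes and 0.15 for focal adhesion genes. At least 1 log2 was gained by 3 of the 39 genes, MYL9, TAGLN and PDLIM7, where 1.42% of all genes gained as much. Among the 11 called genes, 2 had passed the midpoint of their late change at 4 h (TPM1 and FLNA), 2 on day 1 (ACTN1 and PDLIM7), 5 on day 2 (MYL9, TAGLN, CALD1, MYH10 and TPM4) and 2 on day 3 (TPM2 and PALLD). At 4 h FLNA had covered 54.7% of its late change and TPM1 63.9%, whereas TAGLN had covered 1.32% and MYL9 was at its untreated value. By day 2 MYL9 and TAGLN stood at 100% and 104% of theirs. The early share depends on the baseline. With the mean of the untreated and 4 h arrays as baseline, 1 called gene in place of 4 was past its midpoint by day 1.

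**Figure D4:**
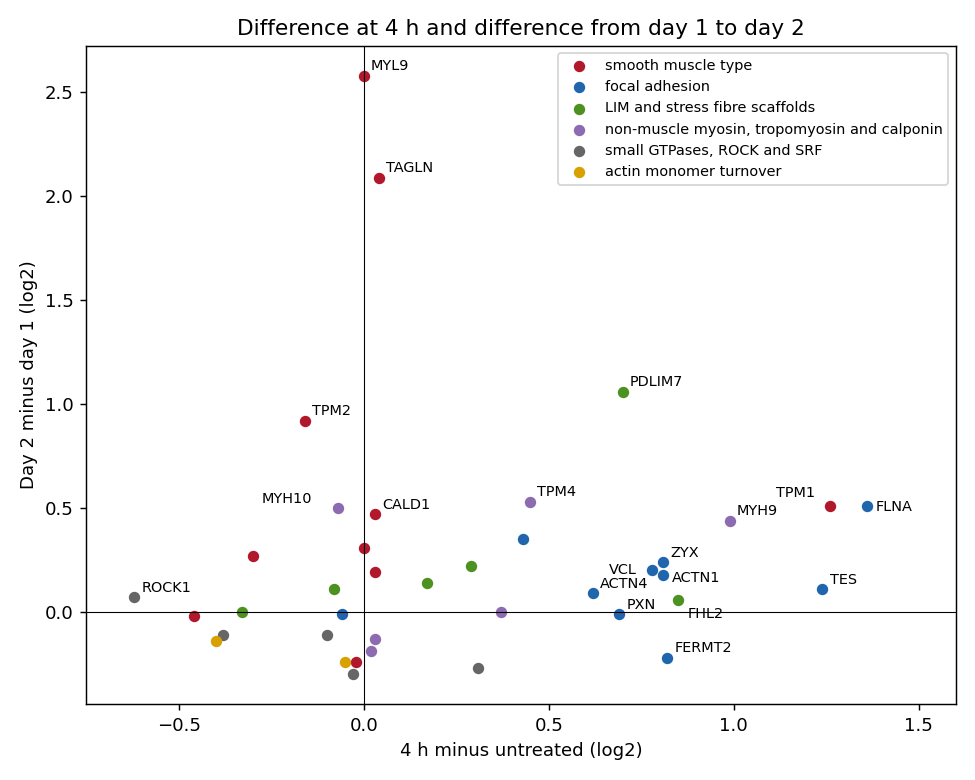
Each point is 1 of the 39 genes, with its 4 h minus untreated log2 difference on the horizontal axis and its day 2 minus day 1 difference on the vertical axis, coloured by role, and each difference is between 2 single arrays. MYL9 and TAGLN lie high at 2.58 and 2.09, close to 0 on the horizontal axis, FLNA, TPM1 and TES lie low on the right at 1.24 to 1.36, and PDLIM7 lies between.

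Among the LIM and stress fibre scaffolds, PDLIM7, a PDZ and LIM protein that binds actin fibres through tropomyosin, rose most. It read 4.15, 4.85 and 5.50 early, 6.56, 6.78 and 6.53 in the middle and 6.91, 6.60, 6.90 and 6.48 late. It climbed at each of the first 3 steps and levelled off from day 2, without overlap between early and later arrays. The rise was 1.89 (SE 0.25) late (adjusted p = 0.00056) and 1.79 (SE 0.27) in the middle window (adjusted p = 0.0036). PALLD, palladin, a scaffold that binds α-actinin along stress fibres, read 6.49, 6.65 and 6.89, then 7.03, 7.45 and 7.46, then 7.67, 7.76, 7.79 and 7.63. Its 3 windows did not overlap and stood in rising order, with a late minus early difference of 1.04 (SE 0.14, adjusted p = 0.000608). LIMA1 (EPLIN, which stabilises filaments) and PDLIM5 (an α-actinin binding LIM protein) passed on p with differences of 0.54 and 0.44, and did not without the untreated array (0.39 and 0.45, adjusted p = 0.137 and 0.0826). FHL2, a LIM coactivator, and FLNC, the filamin of striated muscle, did not pass (0.38 and -0.12, adjusted p = 0.206 and 0.634), so that of the 2 filamins among the 39 genes FLNA alone was called.

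Of the non-muscle motor and filament genes, MYH10 and TPM4 were called. MYH10, the heavy chain of non-muscle myosin IIB, read 5.05, 4.98 and 5.23 early, 5.73, 5.82 and 6.04 in the middle and 6.30, 6.35, 6.46 and 6.05 late. Its windows rose in order without overlap, and the late difference was 1.20 (SE 0.13, adjusted p = 0.000165). TPM4, a cytoskeletal tropomyosin, read 5.36, 5.82 and 5.89 early, then 6.42, 6.78 and 6.74, then 7.05, 7.25, 7.09 and 6.22. It peaked on day 6 and was lower on day 12 than on day 2. It rose by 1.21 (SE 0.23) late against early (adjusted p = 0.00431). MYH9, the heavy chain of non-muscle myosin IIA, took most of its change from untreated at 4 h (0.99, beside 1.38 for the late mean). Its late minus early difference was 0.74 (limma adjusted p = 0.0365), under the size limit. Without the untreated array this difference was 0.41 (adjusted p = 0.0678). TPM3, CNN2 and CNN3 were not called, at -0.18, 0.36 and 0.13. TPM3 was dim, below the median gene on 8 of the 10 arrays. Of the 4 tropomyosin genes 3 were thus called, TPM3 being the exception, and of the 3 calponins 0 were, with unadjusted limma p of at most 0.05 for CNN2 only. TPM3, CFL1 and PFN1 have near-identical copies elsewhere in the genome, and the handling of shared probes is not given in the sources used here, so their values are uncertain.

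None of the 5 genes for small GTPases, ROCK kinases and SRF was called in limma, and the median late minus early difference was -0.08. ROCK1 (higher), RHOA and RHOB (lower) had an unadjusted p of at most 0.05. Such a p was found for 13.1% of all genes with a higher late mean and 15.2% with a lower one. SRF, the transcription factor that binds CArG boxes, read 6.23, 6.13 and 6.04 early, 5.92, 6.25 and 5.95 in the middle and 6.28, 6.01, 6.22 and 5.70 late. Its windows overlapped, and the difference was -0.08 (95% interval -0.41 to 0.25, adjusted p = 0.79). RHOB, a small GTPase encoded by an immediate early gene, read 4.96, 5.27 and 4.89 early, then 4.62, 4.82 and 4.94, then 4.53, 4.77, 4.84 and 4.43. It was highest at 4 h, 0.31 above untreated, and all 4 late arrays lay below the 3 early ones, with a difference of -0.40 (adjusted p = 0.0887). RHOA also lay lower on every late array (-0.31, adjusted p = 0.0661), as did PFN1, profilin 1, which feeds actin monomers to growing filaments (-0.37, adjusted p = 0.101). These were the 3 of 39 genes with all late arrays below all early ones, where 13.1% of all genes were so placed. In the other direction 18 genes had all late arrays above the early ones, against 10.8% of all genes. ROCK1 (0.49) and ROCK2 (0.04), kinases that RHOA activates, and CFL1 (-0.20), cofilin 1, which severs filaments, did not pass, with adjusted p values of 0.0776, 0.882 and 0.301. On adjusted p alone ROCK1 passed without the untreated array (0.62, adjusted p = 0.0421) and RHOA under the trended, robust prior (adjusted p = 0.0416), both with differences under 1 log2. ROCK1 was the 1 gene of the 39 at least 0.5 log2 below untreated at 4 h (-0.62), as were 11% of all genes.

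**Figure D5:**
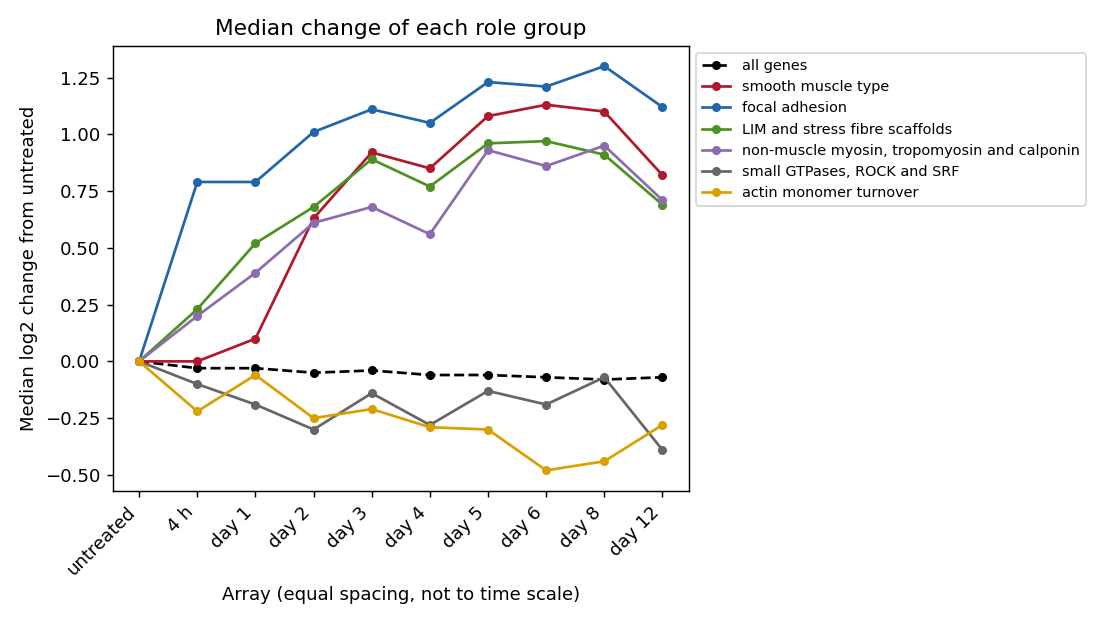
Lines give the median log2 change from the untreated array over the genes of each role group on each of the 10 arrays, with all 23786 genes as the dashed line. The focal adhesion line stands at 0.79 at 4 h and 1.30 on day 8, the smooth muscle type line at 0.00 at 4 h, 0.63 on day 2 and 1.10 on day 8, and the lines of GTPases with ROCK and SRF and of turnover genes stay at or below 0.

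The middle window was then set against the windows on either side. Middle against early, 5 of 39 genes (MYL9, TAGLN, TPM2, FLNA and PDLIM7) were called higher and 0 lower, against 1.78% and 1.02% of all genes. In limma 0 had an unadjusted p of at most 0.05 with a lower middle mean, against 11% of all genes, and the trended, robust prior gave 0 lower too. With no limit on size 10 were higher (4.25% of all genes), and the same number with a limit of 0.5 log2 (4.15%). The count of 5 was 3 without the day 4 array (MYL9, TAGLN and PDLIM7) and 7 without the day 1 array, which added TPM1 and TPM4. It was 4 in 7 of the other fits with 1 array left out, the one without untreated among them, with FLNA lost, and MYL9, TAGLN and PDLIM7 were called in all 10. Late against middle, limma called 0 of 39 higher and 0 lower, against 0.303% and 0.0715% of all genes. Unadjusted p values of at most 0.05 were found for 6 higher (CALD1, TPM2, TNS1, PALLD, PDLIM5 and MYH10) and 0 lower, against 4.79% and 4.99% of all genes. The trended, robust prior also called 0. TNS1 came closest, with a difference of 0.77 and an adjusted p of 0.0806, and its late arrays all lay above its middle ones. In the fit of a quadratic in time, 16 of 39 genes changed in the upward direction and 0 in the downward one, against 5.21% and 3.44% of all genes. To pass, a gene needed an adjusted p of at most 0.05 by limma's F test and R2 no lower than 0.6. It also needed 1 log2 or more between the single untreated array and its most distant array. With a linear term in place of the quadratic, the count of 16 was 1. Unadjusted, 3 genes (7.69%) with a downward largest change had an F test p of at most 0.05, ACTA2, ROCK1 and PFN1, against 12.3% of all genes.

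Most members were lower on day 12 than on the other late days. Day 12 was the lowest of the 4 late arrays for 26 of 39 genes (66.7%) and for 10 of the 11 called ones (90.9%), FLNA being the exception. Over all genes the share was 28.1%, and over the 694 genes called higher late against early it was 48.7%. The median of day 12 minus the mean of days 5, 6 and 8 was -0.33 over the 11 called genes and -0.15 over those 694. For MYL9 it was -0.83, for TAGLN -0.78 and for TPM4 -0.91, and ACTA2 went the other way at 0.85. These rest on 1 array and have no test.

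Beyond the 39, 66 other genes of the same machinery were listed, and 65 were measured, ACTB not being analysed here. The 39 and these lists were chosen with earlier results of these data known. The shares below therefore describe the lists and cannot show how far the change reached. Of these 2 were called higher late against early, 0 lower and 63 not called. The share called higher was 3.08%, near the 2.92% of all genes, and the median difference was 0.12. On limma's adjusted p alone 11 of the 65 (16.9%) had a higher late mean, against 8% of all genes, and 3 (4.62%) a lower one, against 7.12%. Beside those named below, the 11 included CSRP1, SMTN, FSCN1, PFN2 and TMOD3, at 0.54 to 0.91. The 3 were TMSB10 (-0.70, adjusted p = 0.00556) and TMSB4X (-0.62, adjusted p = 0.0256), both β-thymosins that sequester actin monomers, and PPP1R12B (-0.39, adjusted p = 0.0479). NEXN, nexilin, a filament protein of muscle and adhesions, was called among 15 other smooth muscle genes (2.53, SE 0.27, adjusted p = 0.000145). DIAPH3, a formin that nucleates filaments, was called among 10 other small GTPase, effector and MRTF genes (2.64, SE 0.31, adjusted p = 0.000261). Among 17 other focal adhesion genes 4 passed on adjusted p, PARVA (0.95), TNS2 (0.79), TNS4 (0.58) and LPP (0.47), with higher late means and differences under 1 log2. LIMS1 had the largest late minus early difference of this list, 1.05, and did not pass on p (limma adjusted p = 0.0555). At 4 h, 3 of these 17, LIMS1 (1.55) among them, reached 0.5 log2 above untreated, with a median of 0.12 for the list. So did 11.4% of all genes and 18.9% of those above the median gene. MRTFA and MRTFB, the coactivators of SRF, had differences of 0.51 and 0.07 (adjusted p = 0.0933 and 0.792). The other cytoplasmic actin, ACTG1, which has many processed copies and is uncertain for that reason, gave 0.81 (adjusted p = 0.0645).

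The genes with a CArG box in the searched windows did not share one course. Of the 10, 3 were called higher late against early (ACTN1, FLNA and TPM4), beside 28.2% of the 39 genes and 2.92% of all genes. TES (0.72), MYLK (0.58), FHL2 (0.38), CNN2 (0.36) and ROCK2 (0.04) were not called. Of these, MYLK alone had a limma adjusted p of at most 0.05. ACTG2, with 2 boxes, stayed dim, and SRF, with 2 boxes 30 and 10 bases before its start, did not pass. MYL9 and TAGLN had no entry in the promoter table.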

How the data were processed

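MCF10A RNA from 10 times (1 array each) was hybridised to Affymetrix Human Gene 2.0 ST arrays. The deposited values are log2 values, which the authors made by RMA in the affy package with probes grouped by Entrez gene. Scanner files were not used here, and spot-level background is unknown. Entrez IDs were named through RefSeq (23093 of 23786 genes), and all 39 members matched. The members and gene lists were chosen with earlier results of these data known. R 4.3.3 and limma 3.58.1 were used for a mean per window, and for a quadratic in days, with eBayes and Benjamini-Hochberg adjustment over all genes, and the scripts were tested on simulated data. The median residual SD was 0.2 log2. Values on every array were given for members called, smooth muscle type members, the leading focal adhesion members, RHOB, SRF and members at least 1 log2 from untreated at 4 h. Alternatives were each array left out, centring, quantile renormalisation, filters, other thresholds, time scales and baselines. One listed gene outside the 39 is not reported here. Array number limits the precision.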

Additional observations from a re-analysis of the deposited data

Results flagged for a closer look

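In the late window of 4 arrays, 1 array lay far from the other 3 by Dixon's criterion for 4 of the 39 genes. The criterion marks about 5% of independent groups by chance. The 39 genes share the same 4 arrays, so that rate is not a background for this count. The share over all genes was not computed. MYL9 was 7.09 on day 12 against 7.86 to 7.98 on the other late arrays, and TPM2 was 6.86 on day 12 against 7.18 to 7.24. ROCK2 was 6.72 on day 12 against 6.98 to 7.03, and RHOA was 9.13 on day 5 against 9.24 to 9.26. For 3 of the 4 the outlying array was day 12.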

How the results depend on the processing

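No paired analysis was possible because each time point had 1 array. The late against early count of 11 was unchanged in number by median centring, quantile renormalisation, a filter at the median gene, and a trended, robust limma prior. It was 7 to 12 as single arrays were left out (7 without untreated), 18 with a limit of 0.5 log2 and 19 with none. The middle against early count of 5 was 3 to 7 with arrays left out, and 10 with a limit of 0.5 log2 or none. The count over time of 16 was 1 with a linear term, 18 on square root time and 11 to 16 with arrays left out. The 4 h count of 3 was 12 higher and 1 lower at 0.5 log2, 0 at 1.5 log2, 4 after centring and 0 with untreated and day 1 averaged as baseline. Past the midpoint by day 1 were 4 called genes, or 1 with untreated and 4 h as baseline. The smooth muscle minus focal adhesion gap of 0.10 was -0.02 (without 4 h) to 0.15 with arrays left out, 0.20 by means and 0.13 without ACTN1, ACTN4 and FLNA. It was 0.58 when the smooth muscle genes, and not the focal adhesion genes, were limited to those above the median gene. With arrays left out, signs turned for 6 genes that were not called: CNN1 (-0.24 to 0.01) and FLNC (-0.22 to 0.01) without untreated, ROCK2 (-0.04 to 0.15) without 4 h, ACTG2 (-0.10 to 0.33) without day 1 (-0.06) or day 5, ACTA2 (-0.24 to 0.18) without day 5 or day 6 (0.03), and SRF (-0.16 to 0.04) without day 12. VCL passed the size limit without 4 h (1.06), day 1 (1.09) or day 12 (1.03). The causes were not tested. Low signal limits ACTG2, CNN1, LMOD1, MYLK, TNS1 and TPM3.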
